A study of Mus musculus with 24 samples.

Results

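The genes described here are 42 members of the retinoid, lipid and redox metabolism families. They are the symbols of cytochromes P450, aldehyde and alcohol dehydrogenases, retinoid and fatty acid binding proteins, apolipoproteins, lipases, phospholipases, lipoxygenases, sulfotransferases, glutathione transferases and related families that occur in at least 1 of 23 tables of differential expression. In all, 1753 genes were listed in these tables. The members were grouped by family name and not by a shown role of each gene. Of them, 10 were placed in retinoid metabolism, 8 with lipid carriers or lipases and 2 with fatty acid enzymes. A further 9 fell in steroid and drug metabolism, 5 in redox and conjugation, and 7 in phospholipid and eicosanoid metabolism. Apobec1, a cytidine deaminase that edits apolipoprotein B mRNA, was matched by its name and is given apart. The mm9 annotation holds 411 protein-coding genes of the same families, so 10.2% of them were listed. For the retinoid group the share was 22.7%, or 10 of 44 genes, and Aldh1a1, Aldh1a3, Cyp26c1 and Rdh10 are among the retinoid genes that no table listed.

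P19 cells are mouse embryonal carcinoma cells that form neurons and glia after treatment with retinoids. RNA sequencing covered 24 conditions with 1 library each. WT cells received all-trans retinoic acid (ATRA, which activates all 3 retinoic acid receptors, RARs) or the RARα agonist BMS753 at 1 μM, or the RARβ agonist BMS641 together with the RARγ agonist BMS961 at 0.1 μM each, or ethanol (EtOH) as vehicle, and were sampled at days 2, 4 and 10. At day 10, WT cells with BMS961 alone were also sampled, as were Rara-/- cells (ATRA, BMS961, BMS641+BMS961), Rarb-/- cells (ATRA, BMS753, BMS961, BMS641+BMS961) and Rarg-/- cells (ATRA, BMS753, BMS641, BMS641+BMS961). Ligand or vehicle was present for 4 d, and every day 10 culture then spent 6 d in Neurobasal medium with N2 and B27 without vitamin A. The mutant lines were made with CRISPR/Cas9 and a puromycin resistance cassette, and whether each is 1 clone is not given in the sources used here. The common reference of all tables is the WT library at day 2 in EtOH. Mutant cells with vehicle were not analysed here, so an effect of the line and an effect of the ligand cannot be told apart in those cells. In all lines, values after day 2 also mix the ligand with time in culture, and at day 10 with the change of medium. WT EtOH of the same day is given beside them but was not subtracted. No table lists Rara, Rarb or Rarg, which leaves the loss of each receptor unchecked. Of 6 markers of embryonal carcinoma cells, 4 were listed (Pou5f1, Nanog, Tdgf1 and Lin28a), all of them lower than at day 2 in EtOH wherever they were listed.

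Retinol enters cells through the receptor Stra6 and is oxidised in sequence by alcohol and retinaldehyde dehydrogenases to retinoic acid. Crabp1 and Crabp2 carry retinoic acid in the cytosol, and the Cyp26 enzymes degrade it. Cyp26a1 is a textbook direct target of the RARs, which bind with RXRs to a direct repeat of hexamer half-sites in the DNA. Fatty acid binding proteins, lipases and lipoxygenases handle lipids that serve as membrane components, energy stores and signals, and Fabp7 is well known from radial glia.

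The promoters of Cyp26a1, Stra6 and Fabp7 are shown, since RARs bind DNA near their targets, the first pair rose at day 2 with both ATRA and BMS753, and Fabp7 was higher in more tables than any other member. Each run covers the 250 bases before and the 50 bases after a transcription start site, 5′ to 3′ on the strand of the gene. The sequences are from RefSeq (GRCm38.p6 table) and were located in mm9 by exact match at chr19:37772048-37772347 (Cyp26a1, plus strand), chr9:57981632-57981931 (Stra6, plus strand, 1 of 4 listed start sites) and chr10:57504479-57504778 (Fabp7, plus strand). Capitals mark receptor half-sites on either strand. The letters searched were 4 common forms of the RAR half-site, chosen with the element of Cyp26a1 already known, that is AGGTCA, then also AGTTCA, further the form GGGTCA, and finally the form GGTTCA. A half-site on the minus strand appears as its reverse complement, for instance TGAACT.
Cyp26a1: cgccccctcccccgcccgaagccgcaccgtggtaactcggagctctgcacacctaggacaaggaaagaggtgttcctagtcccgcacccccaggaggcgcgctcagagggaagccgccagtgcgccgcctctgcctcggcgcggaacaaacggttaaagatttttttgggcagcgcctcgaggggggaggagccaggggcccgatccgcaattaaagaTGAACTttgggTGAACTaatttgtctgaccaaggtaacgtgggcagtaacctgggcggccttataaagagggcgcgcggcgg
Stra6: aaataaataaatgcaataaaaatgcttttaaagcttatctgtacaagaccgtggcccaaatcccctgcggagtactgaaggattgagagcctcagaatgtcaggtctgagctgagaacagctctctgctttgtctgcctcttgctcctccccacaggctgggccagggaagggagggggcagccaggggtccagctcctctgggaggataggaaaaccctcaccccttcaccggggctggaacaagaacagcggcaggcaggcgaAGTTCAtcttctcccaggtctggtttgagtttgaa
Fabp7: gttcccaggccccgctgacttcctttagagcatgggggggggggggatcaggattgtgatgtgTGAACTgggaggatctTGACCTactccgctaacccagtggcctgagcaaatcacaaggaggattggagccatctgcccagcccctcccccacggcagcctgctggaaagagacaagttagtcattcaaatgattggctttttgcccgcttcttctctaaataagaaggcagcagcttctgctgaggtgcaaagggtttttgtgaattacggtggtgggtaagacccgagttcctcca
The Cyp26a1 window held a pair of half-sites in direct repeat with 5 bases between them, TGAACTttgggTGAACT, starting 32 bases before the start site. This was the only repeat of that spacing in 41 windows of the 32 members with an entry. Among 32851 windows of all genes, 32 (0.0974%) held it. Repeats spaced by 1 or by 2 bases were in 0.222% and 0.268% of all windows and in 0 of the members' windows. A half-site alone was in 20 of the 41 windows (48.8%) and in 43.7% of all windows. The printed Stra6 window was picked as the one with the most half-sites. It held 1 half-site and the other 3 Stra6 windows held 0. The Fabp7 window held 2, not in such a repeat. The repeat of Cyp26a1 was known when the letters were chosen, so its match is no independent finding, and the matches describe letters and not bound sites.

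All values below are log2 fold changes of a library against WT EtOH at day 2, as the authors computed them, so they are differences and not levels, and levels of separate genes cannot be compared. The error given with ± is the standard error (SE) of that fit, obtained from the fold change and its unadjusted p-value. It comes from the model, since there were no replicates, and no difference between conditions could be tested against replicate spread. The tables hold only genes with p under 0.01. Where a table has no row for a gene, the gene is described as not listed, and it may still have changed. The 42 members had 163 values, all past a threshold of 2 in either direction, with SEs between 0.883 and 2.92 and a median of 1.97. With the median SE, a log2 fold change had to reach 5.07 to be listed. The smallest absolute value listed differed between tables. At day 10 it was 4.17 to 4.73 with ATRA or BMS753, and 2.71 to 3.35 in the other tables. In a bulk sample, fewer cells of a type and less RNA per cell cannot be told apart.

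All members that rose in WT cells at day 2 with ATRA or BMS753 were in the retinoid group. That group was formed by family name, but with earlier results of these data known, so the match is no independent finding. With ATRA, 5 members were higher (11.9%, with 5.65% of all listed genes called higher) and 1 was lower (2.38%, with 2.57% of all). Cyp26a1, Stra6, Crabp2 and Aldh1a7 were among the higher members, and the lower member was Cyp2b23. Cyp26a1 (chromosome 19, 37772298 to 37776018), which hydroxylates retinoic acid for removal, rose by 4.94 ± 1.63, or 30.6-fold. Stra6, the membrane receptor for retinol uptake (chromosome 9, 57911595 to 58001803), rose by 5.00 ± 1.65. Crabp2 (chromosome 3, 87752588 to 87757298) stood at 3.65 ± 1.36. Aldh1a7, an aldehyde dehydrogenase close in sequence to Aldh1a1 (chromosome 19, 20767443 to 20802052), had the largest value of the day, 7.67, and also the largest SE of any member value, 2.92.

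BMS753 at day 2 raised 3 members, with 6.39% of all listed genes called higher, and lowered 0, with 1.88% of all called lower. The 3 were again retinoid genes. Cyp26a1 was at 2.62 ± 0.89 and Stra6 at 2.31 ± 0.88. Crabp1, which binds retinoic acid in the cytosol (chromosome 9, 54612555 to 54620917), was at 2.74 ± 0.92. Both values shared with ATRA were smaller under BMS753, which had the same dose and time. The difference was 2.32 for Cyp26a1, with a 95% interval from -1.31 to 5.95, and 2.69 for Stra6, from -0.97 to 6.35. These intervals take the 2 fits as independent although they share the reference library, and both include 0. BMS641 and BMS961 were given at a lower dose than ATRA and BMS753, so their values are set beside those without a comparison. With the combination at day 2, no retinoid gene was listed. Pla2g3, a secreted phospholipase, was the only member higher there, at 6.55 ± 2.41 (1 member, with 3.71% of all called higher), and 0 members were lower (1.48% of all).

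**Figure D1:**
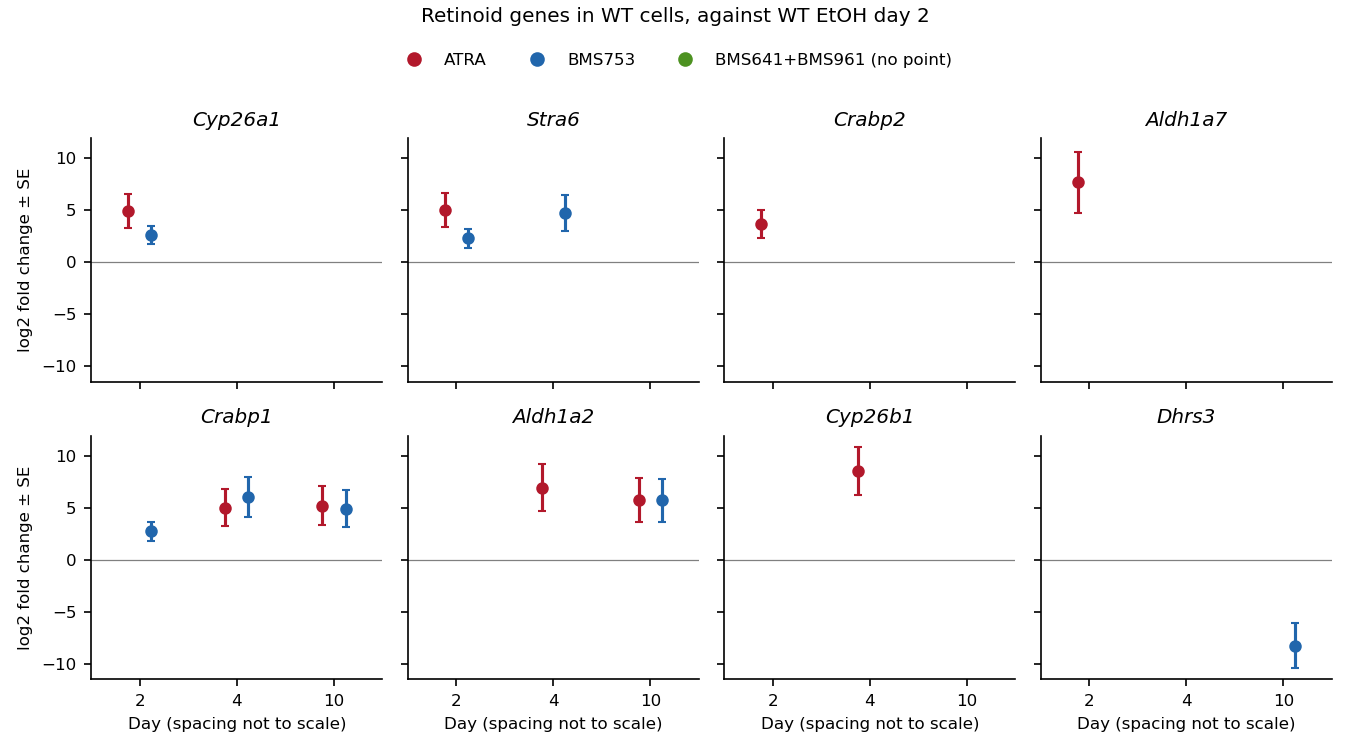
Log2 fold change against WT EtOH day 2 (y axis) of 8 retinoid genes in WT cells at days 2, 4 and 10 (x axis), 1 library per point, with bars for ± SE of the fit. Cyp26a1, Crabp2 and Aldh1a7 have points at day 2 only, Crabp1 and Aldh1a2 still have points at day 10, and BMS641+BMS961 has none; a missing point is a gene that was not listed.

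At day 4 the retinoid genes listed were in part others than at day 2. ATRA gave 7 higher members (16.7%, with 10.2% of all listed genes higher) and 3 lower ones (7.14%, with 5.7% of all). Aldh1a2, the retinaldehyde dehydrogenase that makes retinoic acid in the embryo (chromosome 9, 71063596 to 71144050), was at 6.91 ± 2.25. Adh1, an alcohol dehydrogenase that oxidises retinol (chromosome 3, 137923955 to 137953662), was at 8.93 ± 2.82. Cyp26b1, the second of the retinoic acid hydroxylases (chromosome 6, 84521938 to 84543740), was listed in this table alone, at 8.53 ± 2.31. Crabp1 was at 5.02 ± 1.77. Genes of both synthesis and removal of retinoic acid were thus higher in the same library, while Cyp26a1, Stra6 and Crabp2 were not listed. With ATRA, the smallest absolute value of any listed gene was 3.55 at day 2 and 4.24 at day 4. The day 2 value of Crabp2, 3.65, was below the latter. A change in these genes between the days is therefore not shown.

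BMS753 at day 4 gave 3 higher members (7.14%, with 8.33% of all higher), 2 of them retinoid genes, and 2 lower ones (4.76%, with 3.31% of all). Crabp1 reached 6.02 ± 1.91, the largest of its 9 values, and Stra6 4.76 ± 1.72. Crabp1 and 2 genes outside the retinoid group (Fabp7 and Cyp2b23) were the members listed with both ligands, out of 10 for ATRA and 5 for BMS753. BMS641+BMS961 again had no retinoid gene at day 4, with 0 members higher (2.22% of all) and 3 lower (7.14%, with 2.91% of all). Other retinoid-responsive genes were listed in that library, among them Hoxb1 at 7.45 and Meis2 at 2.54. In EtOH at day 4, 0 members were listed in either direction, with 1.65% of all genes higher and 0.57% lower.

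At day 10, Crabp1 and Aldh1a2 were the retinoid genes listed in WT cells with both ATRA and BMS753. Crabp1 was at 5.21 ± 1.89 with ATRA and 4.88 ± 1.78 with BMS753. Aldh1a2 was at 5.75 ± 2.12 and 5.71 ± 2.07. The 2 ligands differed by 0.33 for Crabp1 (95% interval from -4.76 to 5.41) and by 0.04 for Aldh1a2 (from -5.77 to 5.85). The near equality of these values is thus bounded only loosely. Dhrs3, which reduces retinaldehyde back to retinol (chromosome 4, 144482730 to 144518112), fell by 8.24 (SE 2.15) with BMS753 and was not listed with ATRA. No retinoid gene was listed in WT cells with BMS641+BMS961, with BMS961 alone or in EtOH at any day.

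In the mutant lines, Aldh1a2 was the retinoid gene found most widely. It was listed in 6 of the 11 mutant tables, always higher. With ATRA it stood at 9.13 ± 2.24 in Rara-/-, 8.43 ± 2.30 in Rarb-/- and 9.10 ± 2.35 in Rarg-/- cells. WT minus mutant was -3.38 for Rara-/- cells (95% interval from -9.43 to 2.67), -2.68 for Rarb-/- (from -8.81 to 3.45) and -3.35 for Rarg-/- cells (from -9.55 to 2.86). All 3 mutant values were thus above that of WT cells, with intervals that include 0. With BMS753 it was at 5.31 ± 2.03 in Rarb-/- and 7.99 ± 2.17 in Rarg-/- cells. In Rara-/- cells with BMS641+BMS961 it was at 4.85 ± 1.85, the only table without ATRA or BMS753 that listed it.

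Crabp1 was listed in 4 mutant tables, none of them from Rarg-/- cells. It was at 4.68 ± 1.47 with BMS961 and 5.09 ± 1.51 with BMS641+BMS961 in Rara-/- cells, and not listed there with ATRA. In Rarb-/- cells it was at 5.49 ± 1.88 with ATRA and 4.90 ± 1.78 with BMS753. Aldh1a7 was listed with ATRA in all 3 mutant lines, at 8.02 ± 2.53, 9.63 ± 2.66 and 7.21 ± 2.59 in Rara-/-, Rarb-/- and Rarg-/- cells, and with BMS753 in Rarg-/- cells at 7.86 ± 2.53. It was not listed in WT cells at day 10. With its SEs, it had to pass between 6.52 and 7.52 to be listed at all, so an absence says little. Adh1 was higher in Rara-/- cells with ATRA, at 6.84 ± 2.56.

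Lower retinoid values at day 10 came from 2 genes. Dhrs3 fell by 5.01 (SE 1.80) in Rarb-/- cells with BMS753, and in Rarg-/- cells by 5.02 (SE 1.85) with ATRA and by 5.42 (SE 1.79) with BMS753. Dhrs3 was therefore lower in all 3 day 10 tables of BMS753, and in 1 of the 4 of ATRA. Stra6 was the only member listed in both directions. It fell by 5.63 (SE 1.94) in Rarb-/- cells with BMS961 and by 4.90 (SE 1.80) in Rarg-/- cells with BMS641+BMS961, against the rise in WT cells at days 2 and 4. Among all listed genes, 14 (0.799%) were listed in both directions.

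**Figure D2:**
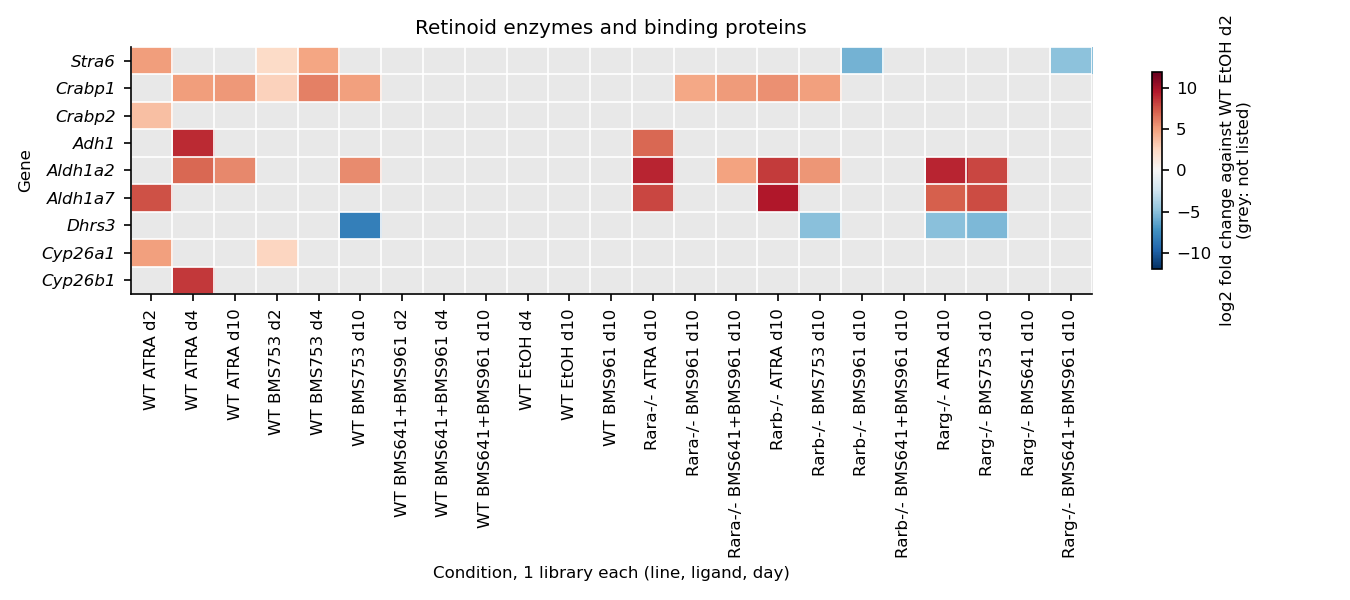
Log2 fold change against WT EtOH day 2 (color scale, red higher, blue lower) of 9 retinoid members (rows) in 23 conditions of 1 library each (columns), with grey for not listed. WT cells with BMS641+BMS961, BMS961 or EtOH are grey throughout, and Aldh1a2 and Crabp1 fill the most cells, 9 each.

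Of the lipid carriers and lipases, 4 were higher and 4 lower in every table that listed them. Fabp7, the brain fatty acid binding protein (chromosome 10, 57504687 to 57508256), was higher in 14 tables. In WT cells with ATRA it was at 5.28 ± 1.95 at day 4 and 10.42 ± 2.38 at day 10. With BMS753 the values were 5.36 ± 1.94 and 9.71 ± 2.25. At day 10 it was also higher in EtOH, at 4.27 ± 1.60, with BMS961 at 5.73 ± 1.58, and with BMS641+BMS961 at 7.27 ± 1.65. Fabp7 was thus higher in each of the 5 WT cultures at day 10, vehicle included. These values are not ranked, since the ligand doses differed. In the mutant lines it spanned 6.20 to 10.38 and was not listed in Rarb-/- or Rarg-/- cells without ATRA or BMS753. In Rara-/- cells it was listed with all 3 treatments, at 7.36 ± 2.00 with ATRA, 7.38 ± 1.79 with BMS961 and 8.89 ± 1.91 with BMS641+BMS961.

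Plin2, a coat protein of lipid droplets (chromosome 4, 86294290 to 86315964), was listed in Rarg-/- cells only, in all 4 of their tables. It was at -5.98 ± 1.96 with ATRA, -6.04 ± 1.85 with BMS753, -4.17 ± 1.30 with BMS641 and -3.60 ± 1.23 with BMS641+BMS961. Each value is from 1 library, and Plin2 may have changed in tables that do not list it. Lipg, the endothelial lipase, was lower in 7 tables at day 10, between -5.67 and -3.53, with no WT table of ATRA or BMS753 among them. In WT cells it was at -3.69 with BMS961 and -4.54 with BMS641+BMS961. The smallest absolute value listed in WT cells at day 10 was 4.73 with ATRA and 4.46 with BMS753. The absence of Lipg there therefore says little. Apobr, a receptor for apolipoprotein B, was higher in Rara-/- cells with ATRA (5.45 ± 1.99) and BMS961 (5.10 ± 1.87). The other 4 were each in 1 table: Apod at 7.64 in WT cells with BMS753 at day 10, Fabp12 at 7.92 in WT cells with ATRA at day 4, Fabp3 at -4.74 in Rarb-/- cells with ATRA, and Liph at -4.88 in Rarg-/- cells with BMS753.

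Both fatty acid enzymes were lower where listed. Acsbg1, an acyl-CoA synthetase of brain and other tissues, fell by 5.58 (SE 1.97) in WT cells with BMS753 at day 10. It fell by 5.08 (SE 1.94) in Rarb-/- cells with ATRA and by 3.78 (SE 1.45) in Rarg-/- cells with BMS641+BMS961. Fads2, a desaturase of polyunsaturated fatty acids, fell by 2.75 (SE 1.06) in WT cells with BMS641+BMS961 at day 10.

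In steroid and drug metabolism, Cyp2b23 was the member listed most often of all 42, lower in 16 tables. This cytochrome P450 of the drug-metabolising kind (chromosome 7, 27450246 to 27471456) was at -4.57 ± 1.58 at day 2, -9.21 ± 2.40 at day 4 and -9.50 ± 2.33 at day 10 in WT cells with ATRA. With BMS753 it was not listed at day 2 and stood at -4.64 ± 1.70 at day 4 and -9.20 ± 2.21 at day 10. It was not listed in WT cells with EtOH, BMS961 or BMS641+BMS961 at any day. All 11 mutant tables listed it. With ATRA it was at -12.09 ± 2.70 in Rara-/-, -10.94 ± 2.48 in Rarb-/- and -11.63 ± 2.59 in Rarg-/- cells. The BMS753 values were -7.17 ± 2.01 in Rarb-/- and -10.33 ± 2.25 in Rarg-/- cells. In the 6 mutant tables with BMS641, BMS961 or their combination, at the lower dose, the values lay between -5.80 and -2.79. Cyp2b23 has close paralogs, and reads shared between copies make its values uncertain. The same holds for the Sult, Akr1c, Cyp4 and Gstm genes.

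Akr1c13, an aldo-keto reductase of steroids and other carbonyls, was higher in 5 day 10 tables, all with ATRA or BMS753, between 6.68 and 7.39. The sulfotransferases were lower. Sult2a2 was between -5.53 and -4.42 in 4 tables with ATRA or BMS753, and Sult5a1 between -6.96 and -5.22 in 6 tables that spanned ATRA, BMS753, BMS961 and the combination. Cyp1b1, which oxidises estrogens and also retinoids, was higher in all 3 tables of Rara-/- cells and in no WT table. It was at 5.07 ± 1.77 with ATRA, 4.05 ± 1.52 with BMS961 and 3.90 ± 1.49 with BMS641+BMS961, and at 5.68 ± 1.93 in Rarg-/- cells with ATRA. Of the rest, Cyp4x1 was higher in WT cells with ATRA (7.66) and BMS753 (6.91) at day 10, and Cyp4v3 in Rarb-/- cells with ATRA (6.77) and BMS961 (6.98). Hsd17b14, a hydroxysteroid dehydrogenase, was listed with BMS641+BMS961 alone, at -7.43 in WT and -4.96 in Rara-/- cells. Cyp1a1, the classical target of the aryl hydrocarbon receptor, was at 3.80 in WT cells with that combination.

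Aldh1l1 and Gsto2 of the redox and conjugation group went in opposite directions, and 11 tables listed both. Aldh1l1, a formyltetrahydrofolate dehydrogenase and common astrocyte marker (chromosome 6, 90436421 to 90550197), was lower in 13 tables, between -9.23 and -3.79. Gsto2, an omega class glutathione transferase (chromosome 19, 47940035 to 47960814), was higher in 12 tables, all at day 10, between 6.95 and 8.76. EtOH at day 10 gave -6.06 ± 1.79 for Aldh1l1 and 7.76 ± 2.50 for Gsto2, so both were listed with vehicle alone. Neither was listed in WT or Rarb-/- cells with BMS753 at day 10 nor in Rarg-/- cells with ATRA. The largest decrease of Aldh1l1, -9.23, came with BMS641+BMS961 in WT and in Rarb-/- cells, and the smallest, -3.79 ± 1.46, with the same combination in Rara-/- cells. WT and Rarb-/- cells both gave -9.225. How few reads lie behind that recurring value is unknown, so its size is uncertain.

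Gstm6, a mu class transferase, fell by 3.66 (SE 1.28) in WT cells with BMS641+BMS961 at day 4. In Rarg-/- cells it fell by 6.10 (SE 2.07) with ATRA and by 5.60 (SE 1.90) with BMS753. Aox1, an aldehyde oxidase, was at 7.05 in Rarb-/- cells with BMS961. Gstp2, a pi class transferase, was at -5.24 in Rara-/- cells with BMS961.

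**Figure D3:**
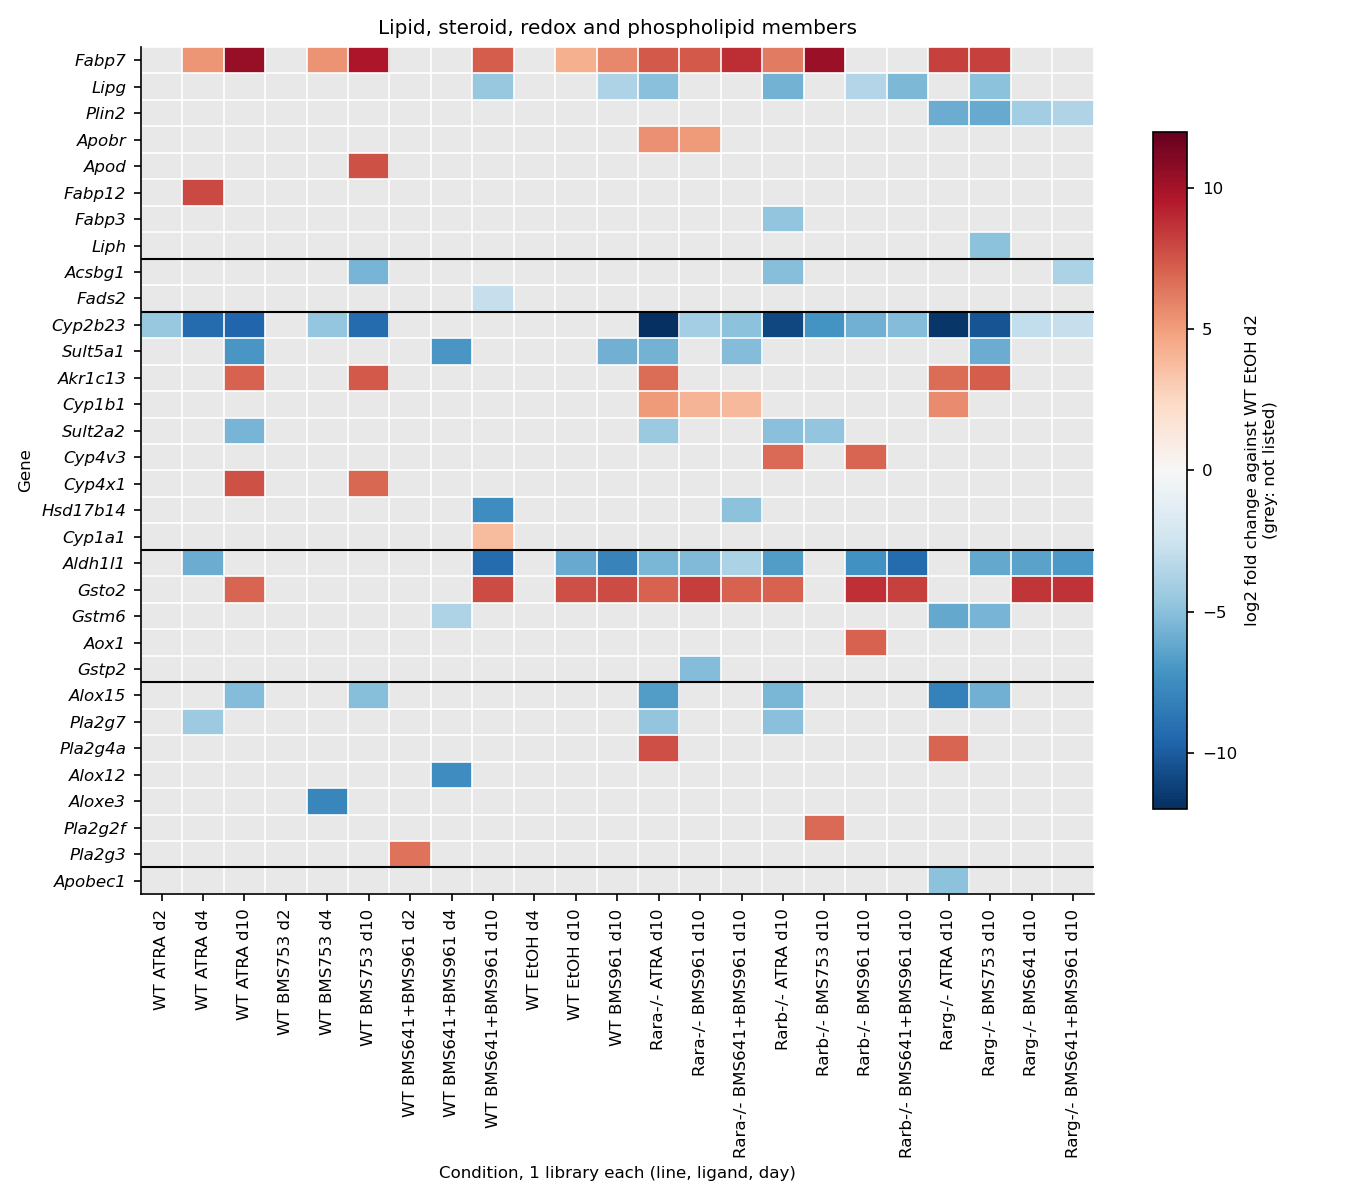
Log2 fold change against WT EtOH day 2 (color scale, red higher, blue lower) of the other 32 members (rows, black lines between the groups from lipid carriers at the top to Apobec1 at the bottom) in 23 conditions of 1 library each (columns), with grey for not listed. Fabp7 and Gsto2 (red) and Cyp2b23 and Aldh1l1 (blue) run across most day 10 columns, and Plin2 is filled in the 4 Rarg-/- columns.

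Lipoxygenases were lower and phospholipases went both ways. Alox15, an arachidonate lipoxygenase (chromosome 11, 70157654 to 70165533), was lower in 6 of the 7 day 10 tables of ATRA or BMS753. It stood at -5.17 ± 1.97 with ATRA and -5.09 ± 1.90 with BMS753 in WT cells. In the mutant lines it lay between -8.14 and -5.53, the former in Rarg-/- cells with ATRA, and Rarb-/- cells with BMS753 did not list it. None of the 9 other day 10 tables did. Alox12, a lipoxygenase of platelets, was at -7.50 ± 2.36 in WT cells with BMS641+BMS961 at day 4. Aloxe3, a lipoxygenase of the epidermis, was at -7.87 ± 2.84 in WT cells with BMS753 at day 4. Pla2g7, which hydrolyses platelet-activating factor, was lower with ATRA in WT cells at day 4 (-4.36 ± 1.66), in Rara-/- cells (-4.70 ± 1.68) and in Rarb-/- cells (-5.01 ± 1.83). Pla2g4a, the cytosolic phospholipase that releases arachidonic acid, was higher with ATRA in Rara-/- (7.73 ± 2.53) and Rarg-/- cells (6.96 ± 2.59). Pla2g2f, a secreted phospholipase, was at 6.79 in Rarb-/- cells with BMS753. Apobec1 was at -4.92 ± 1.88 in Rarg-/- cells with ATRA.

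**Figure D4:**
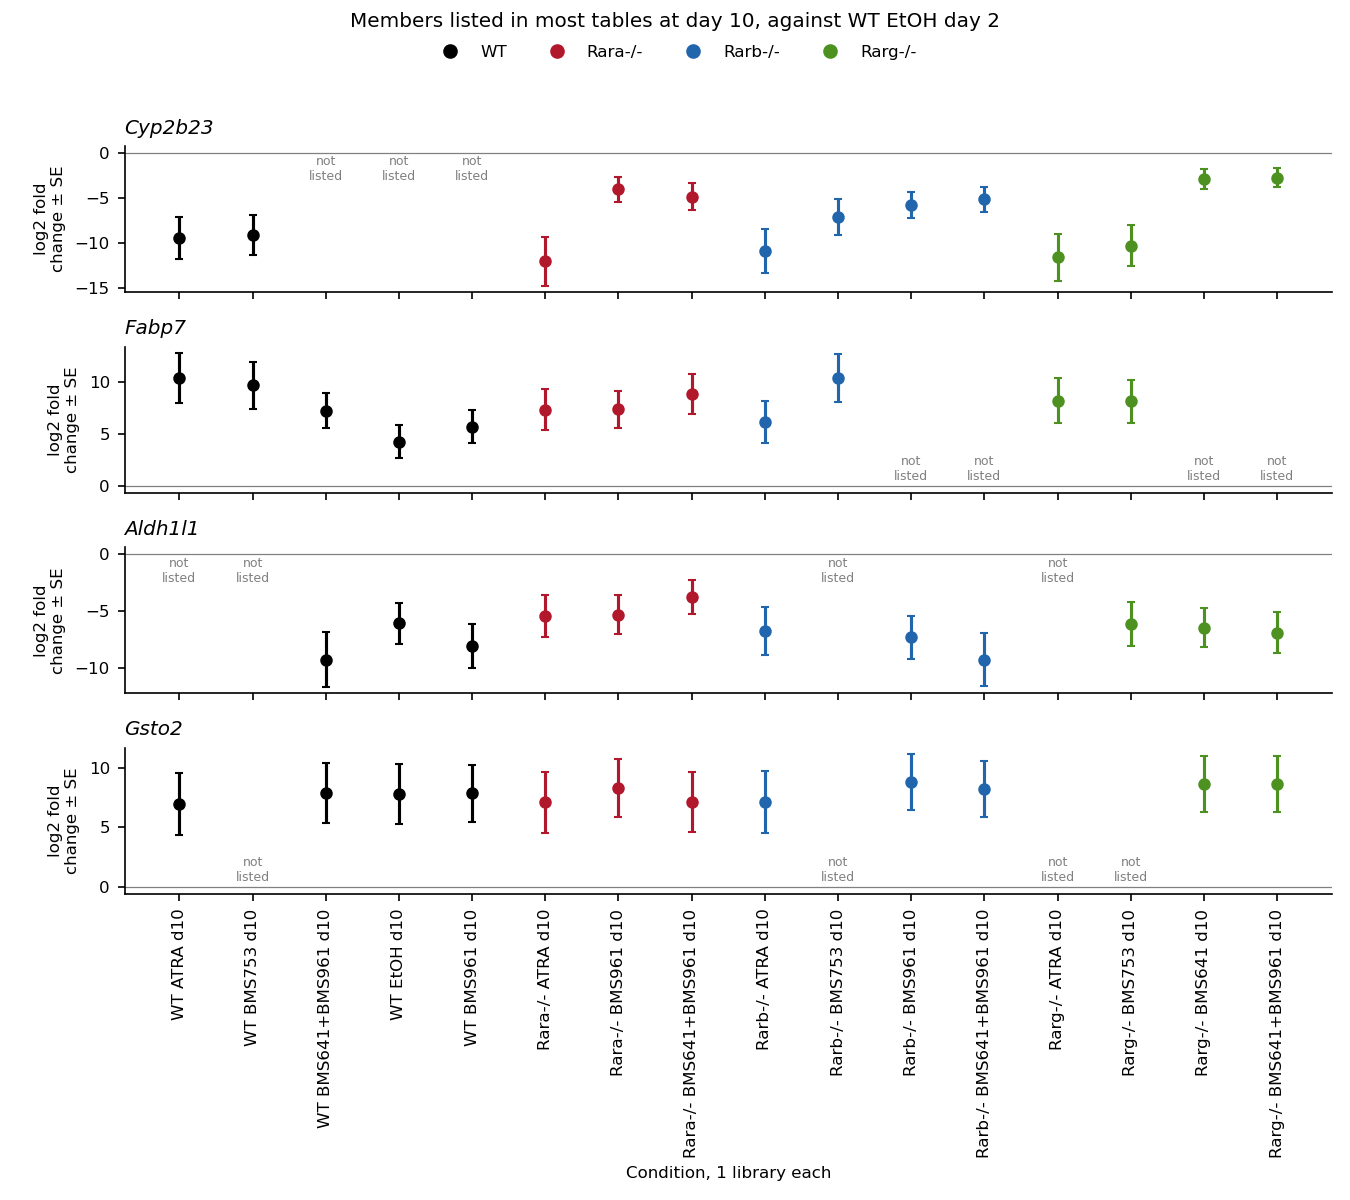
Log2 fold change against WT EtOH day 2 (y axis) with bars for ± SE of the fit, for the 4 members listed in the most tables, in the 16 day 10 conditions of 1 library each (x axis; colors give the line). Cyp2b23 lies lowest with ATRA, at -12.09 in Rara-/- cells, while Aldh1l1 and Gsto2 sit away from 0 in EtOH as well.

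Counted over all groups at day 10, ATRA in WT cells gave 6 higher members (14.3%, with 22.5% of all listed genes higher) and 4 lower (9.52%, with 8.61% of all). BMS753 gave 6 higher (14.3%, with 21.8% of all) and 4 lower (9.52%, with 9.13% of all). The ligands shared 7 of their 10 members each: Akr1c13, Aldh1a2, Alox15, Crabp1, Cyp2b23, Cyp4x1 and Fabp7. How many of all listed genes were shared was not counted, for these or any other tables set side by side here. Whether members overlapped more or less than other genes is therefore unknown. BMS641+BMS961 gave 3 higher (7.14%, with 9.87% of all) and 4 lower (9.52%, with 8.5% of all). BMS961 alone gave 2 higher (4.76%, with 8.16% of all) and 3 lower (7.14%, with 7.47% of all). EtOH gave 2 higher (4.76%, with 9.53% of all) and 1 lower (2.38%, with 7.64% of all). The members' share of higher calls was below that of all listed genes in each of these 5 tables, a difference that was not tested.

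ATRA called more members in each mutant line than in WT cells. In Rara-/- cells 9 were higher (21.4%, with 19% of all) and 7 lower (16.7%, with 10.4% of all). Rarb-/- cells had 6 higher (14.3%, with 20.5% of all) and 8 lower (19%, with 10.3% of all). For Rarg-/- cells the counts were 6 higher (14.3%, with 21.4% of all) and 6 lower (14.3%, with 9.47% of all). The lower members with ATRA thus numbered 6 to 8 in the mutant lines and 4 in WT cells, while the share of all genes called lower ranged from 8.61% to 10.4%. This contrast depends on the p-value limit. With a limit of 0.001, Cyp2b23 was the only lower member with ATRA in WT, Rara-/- and Rarb-/- cells. In Rarg-/- cells Cyp2b23 and Alox15 were left. BMS753 gave 4 higher (9.52%, with 22.3% of all) and 3 lower (7.14%, with 6.79% of all) in Rarb-/- cells. In Rarg-/- cells BMS753 gave 4 higher (9.52%, with 19.9% of all) and 9 lower (21.4%, with 10.3% of all).

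BMS641+BMS961 in Rara-/- cells called 5 members higher (11.9%, with 16.8% of all) and 4 lower (9.52%, with 6.67% of all). Of these 9 and the 7 of WT cells with the same ligands, 4 were shared: Aldh1l1, Fabp7, Gsto2 and Hsd17b14. Aldh1a2, Crabp1, Cyp1b1, Cyp2b23 and Sult5a1 were listed in the Rara-/- cells only. BMS961 alone in Rara-/- cells gave 5 higher (11.9%, with 10.9% of all) and 3 lower (7.14%, with 8.61% of all). The combination called 1 higher and 3 lower in Rarb-/- cells (2.38% and 7.14%, with 8.27% and 7.64% of all) and 1 higher and 5 lower in Rarg-/- cells (2.38% and 11.9%, with 8.61% and 7.3% of all). BMS961 in Rarb-/- cells gave 3 higher and 4 lower (7.14% and 9.52%, with 7.02% and 6.96% of all), and BMS641 in Rarg-/- cells 1 higher and 3 lower (2.38% and 7.14%, with 8.5% and 7.82% of all). Gsto2 was the only higher member in 3 of these tables.

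**Figure D5:**
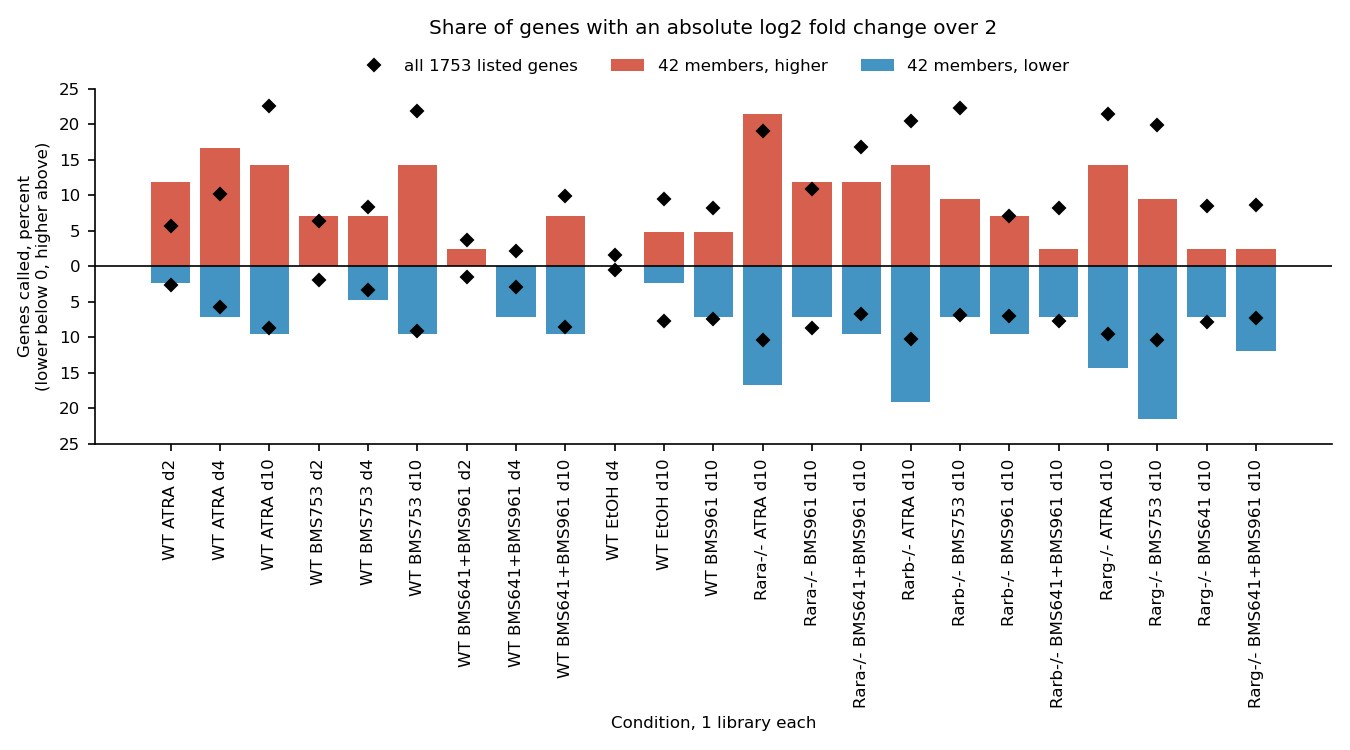
Percent of the 42 members called (bars, higher above 0 in red and lower below 0 in blue) and percent of all 1753 listed genes called (black diamonds) at an absolute log2 fold change over 2, by condition with 1 library each (x axis). Bars rise above the upper diamond with ATRA at days 2 and 4 and, by a little, BMS753 at day 2 in WT cells, in Rara-/- cells with ATRA and with BMS961, and in Rarb-/- cells with BMS961, and fall short of it elsewhere.

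Over 13 pairs of tables that differ in the ligand or in the line alone, 68 member values were in both tables of a pair. All 68 pairs of 95% intervals overlapped, and the interval of the difference left out 0 for 0 of them. Only members listed in both tables entered, and with SEs this wide overlap was likely from the start. The overlap thus does not show that the conditions were alike. The interval closest to leaving out 0 was that of Aldh1l1 with BMS641+BMS961. There WT minus Rara-/- was -5.44, from -10.89 to 0.01. The WT value in it recurred in Rarb-/- cells, so the size of this difference is uncertain. Adding BMS641 to BMS961 is among the 13 pairs, at matched doses and times. In WT cells BMS961 alone and the combination shared 4 members (Aldh1l1, Fabp7, Gsto2 and Lipg) of 5 and 7. In Rara-/- cells they shared 6 of 8 and 9, and Aldh1a2, Hsd17b14 and Sult5a1 were listed with the combination only. A member listed for 1 of a pair is not shown to differ by its absence from the other.

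Other genes of the same pathways are given for comparison. Of 24 further genes of retinoid transport, receptors and response, 10 were listed. The response genes Meis1 (12 tables, 4.60 to 9.41), Meis2 (14 tables, 2.54 to 6.10), Nr2f1 (10 tables, 3.74 to 5.95) and Nr2f2 (17 tables, 4.26 to 8.30) were higher wherever listed, as were Cdx1 and Hoxb1 in 2 tables each and Ttr in 1. Rxrg, a retinoid X receptor, was lower in 5 tables, and Lrp2 in 2. Nr2f2 was also higher in EtOH at day 10, at 4.26. Of 29 further lipid genes, 6 were listed. Abca1, a cholesterol exporter, was higher in 7 tables of ATRA or BMS753 (4.89 to 7.71). Scd1, a stearoyl-CoA desaturase, was lower in 8 tables without ATRA or BMS753, EtOH at day 10 included (-4.54 to -3.19). Its values from -3.95 to -3.19 were smaller in size than any value listed at day 10 with ATRA or BMS753. The absence of Scd1 from those tables therefore says little. Ptgds was lower in 3 tables, Lrp8 in 1, and Ptgs1 was higher in 2. Of 26 further redox genes, 4 were listed, all higher: Gpx1 in 4 tables, Gpx7 and Sod3 in 2 each and Nox4 in 1.

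Markers of other cell types moved in the same tables. Collagen and other mesenchyme markers were higher in all 7 day 10 tables of ATRA or BMS753, with 4 to 6 of 6 listed, with 3 and 4 of 6 in Rara-/- cells with BMS961 and BMS641+BMS961. None was listed in EtOH or in WT cells with BMS961 alone. Of 6 neuron markers, 1 to 4 were higher in the same 7 tables and in Rara-/- cells with BMS961 or BMS641+BMS961. The astrocyte markers Gfap, Aqp4 and Slc1a3 were in no table, and Aldh1l1, the fourth, was lower in all 13 that listed it. Of the endoderm markers, 3 of 8 were listed, in 4 tables, and of the endothelium markers only Kdr, higher in 5. Pdgfra was the 1 of 5 oligodendrocyte precursor markers listed, higher in 15 tables. What part these cell types had in the members' values was not tested. A published list of astrocyte markers that the study used held 9 members (21.4%, with 5.59% of all listed genes), among them Fabp7, Lipg and Aldh1l1, which moved in different directions. The neuron list held 8 members (19%, with 18.8% of all).

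Some members are neighbours on a chromosome. Alox12 and Alox15 are 88.8 kb apart on chromosome 11, Acsbg1 and Crabp1 103 kb apart on chromosome 9, and Cyp1a1 and Stra6 360 kb apart on chromosome 9. Acsbg1 was lower and Crabp1 higher in both tables that listed the pair. Across all conditions, 20 members (47.6%) were listed with ATRA or BMS753 only, with 38.1% of all listed genes, and 3 (7.14%) in an EtOH table, with 19.7% of all. Members listed in 1 table numbered 15 (35.7%, with 33.1% of all).

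A number of values recurred. In 13 of the 163 member values (7.98%), another gene of the same table had the same fold change and p-value as deposited, with 7.73% over all listed genes. These values belonged to 8 members, among them Akr1c13, Gsto2, Cyp4v3 and Sult5a1, and had SEs from 2.14 to 2.60. No value of a retinoid gene, of Fabp7, of Cyp2b23 or of Aldh1l1 was shared in this way within a table. Values that recur between tables were not searched for, and such values do occur. Aldh1l1 was at -9.225 with BMS641+BMS961 in both WT and Rarb-/- cells. Aldh1a7 in Rarg-/- cells with ATRA and Gpx7 in Rarb-/- cells with BMS641+BMS961 were both at 7.208. The counts behind the tables are not used here, so how few reads lie behind such values is unknown.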

How the data were processed

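RNA of P19 cells was sequenced in 24 conditions with 1 library each. As the authors' methods and processing notes state, reads were mapped to mm9 with Bowtie2 2.1.0, assigned to genes with featureCounts and compared with DESeq2. The deposited log2 fold changes and unadjusted p-values are those of the authors' comparison of each library with WT EtOH at day 2, in 23 tables. The authors' standard error, treated as a score in log2 units, was deposited for WT ATRA at day 2 only. No other measurement was used, so the depth is unknown and no limit of detection is given.

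Members were found by matching family names in the first column of all tables. The members, their groups and the pathway and marker lists were chosen with earlier results of these data known. A gene was called higher or lower past an absolute log2 fold change of 2. The SE was computed from the fold change and the two-sided normal p, and its largest relative difference from the deposited one was 4.27e-08 among the 144 genes of that table. Differences between tables have 95% intervals that treat the fits as independent. No p-value was computed, and the background of each count is the 1753 listed genes. Calling was tested on simulated data as a check of the code only. How often a call is wrong with 1 library per condition was not tested.

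Named in full are the retinoid genes, members of other groups in at least 3 tables, and the member with the largest absolute value of each table. The remaining members are named to account for the rest, after their values were seen, and some genes are counted but not reported here by name. Gene coordinates are from the mm9 annotation. Promoter windows were available for 32 members and searched on both strands. Tables were read with pandas 2.3.3 under Python 3.11.15, statistics computed with scipy 1.17.1 on numpy 2.4.6, and plots drawn with matplotlib 3.10.9. The alternatives tried were a p-value limit of 0.001, thresholds of 1 and 3, and leaving out members called in EtOH or members of families with near-identical copies.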

Additional observations from a re-analysis of the deposited data

How the results depend on the processing

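The limit on the p-value changed the counts most. With a limit of 0.001, the higher members at day 10 fell from 6 to 1 in WT cells with ATRA, from 6 to 1 with BMS753, from 3 to 1 with BMS641+BMS961 and from 2 to 0 in EtOH, and from 5 to 2 in Rara-/- cells with BMS641+BMS961. The lower members fell from 4 to 1, from 4 to 2 and from 4 to 1 in WT cells with ATRA, BMS753 and BMS641+BMS961, and from 4 to 0 in the Rara-/- cells. Without families of near-identical copies (Cyp2, Cyp4, Sult, Akr1c and the like), the lower members fell from 4 to 1 for ATRA in WT cells and from 4 to 2 for BMS641+BMS961 in Rara-/- cells. Without members called in EtOH, 1 higher member was left in WT cells with BMS641+BMS961 and 3 in Rara-/- cells with it. A threshold of 1 could not change any of these 10 counts. The smallest absolute log2 fold change of any gene listed at day 10 was 2.71, so the p-value limit decided what was listed. A threshold of 3 changed 1 count, the lower members of WT cells with BMS641+BMS961, from 4 to 3. No paired analysis was possible because each condition has 1 library and the labels carry no replicate numbers. With 1 library per condition and unknown depth, a gene that is not listed may have changed, and 46.6% of the member values have an SE over 2.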
